A study of Homo sapiens with 2 samples.

Results

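The genes described here are the PAX, SOX and TBX transcription factors, taken as the autosomal protein-coding genes whose symbol is PAX, SOX or TBX followed only by digits. The annotation held 39 such genes among 19222 autosomal protein-coding genes. Of these, 38 (9 PAX, 17 SOX and 12 TBX genes) had 10 or more measured CpG sites, among 18094 genes in all, and SOX15 was left out with 3 sites. The rule used names only and no methylation value. DNA methylation was measured by MCC-Seq, a bisulfite capture assay in which unmethylated cytosine is read as thymine and probes then enrich CpG-rich regions. The comparison asked how methylation differed between leukemia cells with the RUNX1-RUNX1T1 fusion and their derivative in which that fusion was silenced. SKNO-1 is an acute myeloid leukemia (AML) cell line that carries the fusion, also called AML1-ETO. SKNO1-siAE was derived from SKNO-1 by infection with the lentiviral vector pRRLcPPT.hPGK, which encodes the siAGF1 oligonucleotides directed at the junction of the fusion mRNA. Both lines were grown in the same medium. There was 1 library of each line, whether SKNO1-siAE was 1 clone is not given in the sources used here, and a control vector was not analysed here, so silencing, viral infection and separate culture cannot be told apart.

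PAX, SOX and TBX proteins bind DNA through the paired domain, the HMG box and the T-box, and they switch on the programmes of single tissues in the embryo. In most cell types that do not use them, their CpG-rich promoters are held silent by Polycomb complexes, and in many cancers DNA methylation is found there instead. A few act in blood: PAX5 fixes B cell identity, TBX21 encodes T-bet of helper T and natural killer cells, SOX4 acts in lymphoid progenitors, SOX6 in red cell maturation and SOX17 in fetal blood stem cells.

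The SKNO-1 library held 83620068 site reads over 4713346 CpG cytosines (mean depth 17.7), and the SKNO1-siAE library held 82164216 over 4694016 (mean depth 17.5). All levels below are the share of reads that were methylated, from 0 to 1, averaged over the 3168726 sites with 5 or more reads in both libraries, and a difference is SKNO-1 minus SKNO1-siAE. Across all shared sites SKNO-1 had a lower mean (0.587) than SKNO1-siAE (0.655). Methylation gives no RNA level, so neither expression of these genes nor loss of the fusion could be checked. Among cell type markers, 1 of 7 myeloid or progenitor, 5 of 6 lymphoid and 3 of 4 epithelial promoters were above 0.5 in both libraries. The myeloid or progenitor promoters had a median of 0.313 in SKNO-1 and 0.329 in SKNO1-siAE. They ranged in SKNO-1 from 0.00446 at MPO, the myeloid granule enzyme, to 0.931 at CD34, a progenitor marker.

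The promoters of these genes were mostly methylated in both lines. A promoter was taken as 1500 bp upstream to 500 bp downstream of every annotated start. The median promoter level was 0.764 in SKNO-1 and 0.854 in SKNO1-siAE over the 38 genes, against 0.296 and 0.387 over all 17251 measured promoters. In 28 of 38 promoters (73.7%) both libraries were above 0.5, against 34.1% of all promoters. Among CpG-rich promoters, which hold a 500 bp window of at least 55% GC with an observed to expected CpG ratio of at least 0.75, the share was 24 of 31 (77.4%) for these genes and 24.8% for all genes. In other developmental families, 35 of 39 HOX promoters (89.7%), 31 of 40 promoters of other homeobox genes (NKX, LHX, DLX, IRX and the sine oculis family; 77.5%) and 21 of 39 FOX promoters (53.8%) were above 0.5 in both.

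The difference between the lines ran one way for most of these promoters but was small for most. The median difference was -0.05 over the 38 promoters and -0.01 over all promoters. The level was lower in SKNO-1 in 30 of 38 promoters (78.9%), against 64.1% of all promoters. The share was much the same, 32 of 40 (80%) with a median difference of -0.05, in the other homeobox genes. In HOX promoters it was 22 of 39 (56.4%) and in FOX promoters 23 of 39 (59%). The direction was thus not particular to these genes. A difference of 0.2 or more was called, with no test since there was 1 library per line. By this limit 5 promoters (13.2%) were lower in SKNO-1, and the background was 13.4% of all promoters and 11% of CpG-rich ones, so the share of these genes was near the background. None was higher in SKNO-1, where the background was 2.48% of all promoters and 2.21% of CpG-rich ones. The 5 were PAX5, TBX21, TBX2, SOX13 and PAX8.

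PAX5 had the widest promoter difference of the set. The promoter level was 0.05 in SKNO-1 and 0.638 in SKNO1-siAE over 130 sites (hg19, chr9:36833266-37034265 for the gene, minus strand). SKNO-1 had 136 methylated among 1374 pooled promoter reads (95% Wilson interval 0.0843 to 0.116), and SKNO1-siAE had 1272 among 1838 (0.671 to 0.713). Read counts here and below are summed over sites, and a read spans several CpGs, so it counts at each one it covers. These intervals, and the limits given for counts of 0, cover counting error only and are too narrow, since molecules were not tagged. In SKNO-1 the PAX5 promoter was near unmethylated, and in SKNO1-siAE most of it was methylated. Called regions were runs of sites that differed in one direction and passed a rank test of their site levels (Mann-Whitney U, 2-sided, Bonferroni adjustment), which compares these 2 libraries and treats sites as independent. PAX5 held 3 of them, the most of any gene in the set. The first spanned the start of the gene, from -157 to 88 bp of it (chr9:37034177-37034422, 31 sites), in promoter and first exon. There SKNO-1 had 0 methylated reads of 287, which allows a share of up to 1.05% (3 counts of the total, the rule used for every count of 0 here in place of an interval), and SKNO1-siAE had 313 of 352. The second was centred at -800 bp from an internal start (chr9:37027196-37027548), with a level of 0.0186 in SKNO-1 and 0.846 in SKNO1-siAE over 30 sites. The third lay in an intron (chr9:37030072-37030346), at 0.0759 and 0.891 over 34 sites. The differences on the plus and minus strands of the first region, which are captured separately, were -0.85 and -0.94.

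The sequences below are 150 bp stretches of called regions, the most densely measured part of each outside untranslated regions, and they show the CpG density of the places that differed between the lines. Capitals mark CpG, and each runs 5′ to 3′ on the strand of its gene. PAX5 (chr9:37034273-37034422, minus strand) is upstream of the start, and in SKNO-1 all 26 measured sites were at 0, while in SKNO1-siAE 22 of them were at 1. TBX21 (chr17:45811283-45811432, plus strand) covers the end of the first exon and the intron after it, at 0.0534 in SKNO-1 and 0.902 in SKNO1-siAE over 26 sites. TBX4 (chr17:59539370-59539519, plus strand) is intronic, at 0.0307 and 0.796 over 31 sites. TBX15 (chr1:119532828-119532977, minus strand) is upstream of its start, at 0 and 0.978 over 12 sites.
PAX5: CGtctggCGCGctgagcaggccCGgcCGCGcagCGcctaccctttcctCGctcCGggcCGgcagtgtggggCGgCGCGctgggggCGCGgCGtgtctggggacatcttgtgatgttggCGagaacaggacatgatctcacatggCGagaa
TBX21: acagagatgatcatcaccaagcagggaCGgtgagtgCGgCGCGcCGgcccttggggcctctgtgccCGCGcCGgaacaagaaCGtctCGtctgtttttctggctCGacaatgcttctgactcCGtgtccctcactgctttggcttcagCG
TBX4: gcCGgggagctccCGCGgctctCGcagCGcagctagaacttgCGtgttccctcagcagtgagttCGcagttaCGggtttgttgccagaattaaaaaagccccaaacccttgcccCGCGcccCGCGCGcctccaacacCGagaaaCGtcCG
TBX15: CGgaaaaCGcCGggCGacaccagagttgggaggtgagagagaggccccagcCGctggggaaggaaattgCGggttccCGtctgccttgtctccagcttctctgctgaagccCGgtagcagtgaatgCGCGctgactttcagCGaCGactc

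The other PAX genes of the same subgroup, PAX2 and PAX8, which pattern kidney and, for PAX8, thyroid, were methylated in both lines. The PAX8 promoter (chr2:113973574-114036498, minus strand) was at 0.733 in SKNO-1 and 0.947 in SKNO1-siAE over 85 sites, a difference of -0.214 that is just past the limit. It was present on the plus strand (-0.41, 45 sites) and not on the minus strand (0.01, 40 sites). The called region (chr2:113992694-113993142, 24 sites, all on the plus strand) was at 0.338 and 0.997, lies at a start inside the gene and overlaps exons of PAX8-AS1. The difference was 0.00788 around the start of the whole gene only and -0.176 in pooled reads. It was -0.159 with the promoter ending at the start and -0.146 with each library's own sites, and in all 4 settings it was short of the limit. The PAX2 promoter was at 0.664 in SKNO-1 and 0.628 in SKNO1-siAE over 218 sites, and its gene body was at 0.677 and 0.847.

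PAX6, the eye and pancreas regulator, fell just short of the limit as a whole and held the longest region of the set. Its promoter was at 0.673 in SKNO-1 and 0.857 in SKNO1-siAE over 652 sites around 66 annotated starts. The region spanned 1511 bp (chr11:31831880-31833390) around an internal start, in exons that hold coding and untranslated sequence. Over its 125 sites SKNO-1 had 69 methylated reads of 1827 and SKNO1-siAE had 1216 of 1669. PAX4, which acts in pancreatic beta cells, was at 0.689 and 0.839 over 29 sites, the fewest of the 38 promoters. PAX1 and PAX9 of the vertebral column were at 0.754 and 0.787, and 0.82 and 0.852. PAX3 and PAX7 of muscle and neural crest were at 0.855 and 0.905, and 0.798 and 0.877. No PAX promoter was under 0.5 in both libraries.

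Among the T-box genes, TBX21 differed in both promoter and gene body. Its promoter (chr17:45810602-45823488 for the gene, plus strand) was at 0.0255 in SKNO-1 and 0.482 in SKNO1-siAE over 62 sites. In pooled reads this was 15 of 657 (0.0139 to 0.0373) against 304 of 727 (0.383 to 0.454). Its body, measured at 38 sites, was at 0.242 and 0.872. TBX21 was thus near unmethylated at the promoter in SKNO-1 and partly methylated in SKNO1-siAE. The called region started 108 bp downstream of the gene start and ran for 723 bp (chr17:45810710-45811432, 51 sites), at 0.0272 and 0.849. In the sites just upstream of it the lines differed less, at 0.0182 and 0.255 over 32 sites. Where the promoter ended at the gene start, the difference was -0.217 in place of -0.456.

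TBX2, a repressor that acts in limb and heart development, was partly methylated in SKNO-1 and highly methylated in SKNO1-siAE. Its promoter (chr17:59477204-59486827 for the gene, plus strand) was at 0.49 and 0.893 over 183 sites, with 1845 of 3215 (0.557 to 0.591) and 2736 of 3021 (0.895 to 0.916) pooled reads methylated. The SD over its sites was 0.434 in SKNO-1 and 0.247 in SKNO1-siAE, and a stretch at the start had no methylated read in SKNO-1. That stretch (chr17:59477140-59477457, from -64 to 253 bp of the start, 47 sites) had 0 methylated reads of 635 in SKNO-1 and 533 of 589 in SKNO1-siAE. The count of 0 allows a share of up to 0.472%. The 635 are summed over sites with a median depth of 15 reads, however, so the true limit is wider. The stretch overlaps the antisense gene TBX2-AS1. The 14 sites just upstream of it were also at 0 in SKNO-1, and at 0.69 in SKNO1-siAE. Measured sites from -868 to -755 bp of its centre were at 0 in SKNO-1 too, at a depth of 5 reads. With 10 or more reads per site the promoter difference was -0.228 in place of -0.403.

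The neighbours of TBX2 in the subfamily were methylated at the promoter in both lines. TBX3, of limb and mammary gland, was at 0.657 and 0.807 over 134 sites, and around the start of the whole gene only the difference was -0.349. TBX4, of hindlimb and lung, was at 0.911 and 0.925 at the promoter, but an intronic stretch of its body (chr17:59539199-59539744, 53 sites) was at 0.0265 in SKNO-1 and 0.84 in SKNO1-siAE. TBX5, of heart and forelimb, was at 0.72 and 0.778. TBX2 and TBX4 lie in one 5 Mb stretch in which SKNO-1 had relatively more reads (log2 read ratio 0.39).

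In the TBX1 subfamily, TBX1 and TBX15 held a called region each within promoters that were otherwise methylated in both lines. TBX1, of the pharyngeal arches, was at 0.77 in SKNO-1 and 0.906 in SKNO1-siAE over 275 sites. Its region (chr22:19748275-19748689, 32 sites) lay at the start of the transcript that begins inside the gene and was at 0.0537 and 0.954, while the 57 sites just downstream were at 0.911 and 0.984. TBX15, of skeleton and muscle, was at 0.758 and 0.892, a difference of -0.133 that was -0.214 around the start of the whole gene only. Its region from -891 to -363 bp of the start (chr1:119532542-119533070, 28 sites) was at 0.0269 and 0.766. Beyond that region the 40 sites just downstream were at 0.92 and 0.945. TBX10 was at 0.422 and 0.547 over 34 sites. TBX18 and TBX20, the latter a heart factor, were at 0.928 and 0.935, and 0.905 and 0.914. TBX19, of the pituitary, was at 0.986 and 0.965, the highest of the set in SKNO-1, while SOX10 was the highest in SKNO1-siAE. TBX6, of the somites, was at 0.231 in both libraries over 37 shared sites, but with each library's own sites the difference was -0.274.

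The SOX genes held the least methylated promoters of the set. SOX12 and SOX4, which belong to the SOXC group, had almost no promoter methylation in either line. SOX12 (chr20:306196-310868, plus strand) had 3 of 1138 promoter reads methylated in SKNO-1 and 0 of 1057 in SKNO1-siAE, which allows a share of up to 0.284%. SOX4 (chr6:21593982-21598850, plus strand) had 5 of 712 (0.003 to 0.0163) and 0 of 853, which allows up to 0.352%. Both limits come from counts summed over sites, with median depths of 18 (SOX12) and 21 (SOX4) reads in SKNO1-siAE, and are too narrow. The third member of that group, SOX11, a neuronal factor, was at 0.825 and 0.862. The bodies of SOX4 and SOX12 were also low, at 0.0131 and 0.111, and at 0.18 and 0.175. For contrast with the regions printed above, a stretch upstream of SOX12 (chr20:305626-305775, plus strand) is shown, in which all 14 measured sites were at 0 in both libraries, with 0 of 381 and 0 of 333 reads methylated.
SOX12: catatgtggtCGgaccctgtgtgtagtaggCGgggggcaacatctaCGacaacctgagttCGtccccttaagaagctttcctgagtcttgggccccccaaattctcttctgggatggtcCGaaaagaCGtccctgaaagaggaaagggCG

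The endothelial SOXF genes differed among themselves. SOX18 was near unmethylated, at 0.0702 in SKNO-1 and 0.0088 in SKNO1-siAE over 46 shared sites. With each library's own sites, its difference was 0.267 and past the limit in the other direction. SOX17 was at 0.9 and 0.966 over 80 sites, and SOX7 at 0.924 and 0.838 over 59 sites. The SOX7 difference of 0.09 was the highest of the set, and it was 0.25 on the plus strand and -0.05 on the minus strand.

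Of the SOXD genes, SOX13 was past the limit at its promoter. SOX13 (chr1:204042243-204096871, plus strand) was at 0.42 in SKNO-1 and 0.691 in SKNO1-siAE over 73 sites. In pooled reads the gap was smaller, at 771 of 1428 (0.514 to 0.566) and 760 of 1183 (0.615 to 0.669), a difference of -0.103. With 10 or more reads per site it was -0.107, and with each library's own sites -0.195, so the call was lost in all 3 settings. Around the start of the whole gene only, and with the promoter ending at the start, it was wider, at -0.481 in both. Its called region began 95 bp downstream of the start (chr1:204042338-204042496, 28 sites) and was at 0.049 and 0.635, but the median depth there was 6 reads in SKNO-1 and 5 of the sites had 10 or more reads in both libraries. SOX6 was at 0.367 and 0.408 over 287 sites, and 93 of its 479 sites in all also lie in the promoter of C11orf58. Such overlap with another gene's promoter also held for 143 of 876 sites at PAX6 and 140 of 301 at SOX30. At SOX8 it was 45 of 152, and at SOX10 41 of 116. Without these sites the same 5 promoters were past the limit. SOX5, of cartilage and neurons, was at 0.677 and 0.651.

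The other SOX promoters were above 0.75 in both lines. SOX1 and SOX2, of neural and pluripotent stem cells, were at 0.877 and 0.913, and 0.778 and 0.834. SOX14 and SOX21 were at 0.805 and 0.827, and 0.922 and 0.917. SOX8, SOX9 and SOX10, of neural crest, cartilage and testis, were at 0.897 and 0.948, 0.816 and 0.866, and 0.957 and 0.97. SOX30, a testis gene, was at 0.885 and 0.95.

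Gene bodies, the rest of each gene beyond its promoters, were methylated to a similar degree as those of other genes. The median body level was 0.756 in SKNO-1 and 0.837 in SKNO1-siAE over 35 bodies with 10 or more sites, against 0.764 and 0.822 over all 14047. PAX4, SOX10, SOX15 and TBX20 had too few body sites. By the limit of 0.2, 4 bodies (11.4%) were lower in SKNO-1, near the background of 10%, and none was higher (background 2.34%). The 4 were TBX21, SOX8, SOX5 and SOX7. SOX8 was at 0.444 and 0.816 over 68 sites, and its region in untranslated exon sequence (chr16:1036094-1036295, 21 sites) was at 0.0508 and 0.807 and was the closest of the called regions to the threshold of the test. SKNO-1 had fewer reads across that 5 Mb stretch (log2 read ratio -1.02), and whether this bears on the SOX8 value was not tested. The SOX8 body difference of -0.372 was -0.729 with 10 or more reads per site and -0.214 with each library's own sites. SOX5 was at 0.487 and 0.715 over 185 sites, with similar differences on the plus (-0.23) and minus strands (-0.22), but it was short of the limit with the promoter taken around the start of the whole gene only. SOX7 was at 0.755 and 0.957 over 87 sites, and its difference of -0.202 was -0.195 in pooled reads, short of the limit. The SOX7 call was also lost with 10 or more reads per site, with promoters that end at the start and with each library's own sites. Next came PAX2, with a body difference of -0.17. In the other direction SOX18 was at 0.521 and 0.413, with differences of 0.46 on the plus and -0.27 on the minus strand. PAX8 (0.04), PAX9 (0.03), TBX18 (0.01) and SOX12 (0.01) were the other bodies above 0.

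Counts of single sites that differed were near those over all shared sites. Of 11152 sites in these genes, 1474 (13.2%) were lower in SKNO-1 by Fisher's exact test with Benjamini-Hochberg adjustment and a difference of 0.2, against 11.7% of all sites, and 574 (5.15%) were higher, against 4.4%. The share lower was 15.5% in PAX, 13.8% in TBX and 10.5% in SOX genes, and the share higher was 6.25%, 4.57% and 4.57%. On average these sites were at 0.716 in SKNO-1 and 0.792 in SKNO1-siAE.

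All 12 regions in these genes were lower in SKNO-1, the direction of 81.9% of the 2937 regions called over all shared sites. They lay at 10 genes, with differences from -0.91 to -0.59, a median length of 384 bp and median levels of 0.0354 and 0.848. The PAX8 region, at 0.338, was the least depleted in SKNO-1, and the other 11 were under 0.1 there. In all, 9 lay in promoters and 3 in gene bodies. Genes with such a region were 10 of 38 (26.3%) against 10.2% of all genes, and genes with a region higher in SKNO-1 were 0 of 38 against 2.65%. These genes have more sites, however, a median of 246 against 108.5. Among genes with 200 or more sites the share was 7 of 25 (28%) against 23.3%, a smaller gap. With Benjamini-Hochberg adjustment over candidate regions, 82 of 226 candidates in these genes (36.3%) were lower and 28 (12.4%) were higher, against 43.3% and 11.6% of all candidates. With 10 or more reads per site, 7 regions were lower and none was higher.

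The strands gave the only repeat measure, a technical one. Of the 5 promoters past the limit, 4 had differences of the same sign and at least 0.1 on both strands, the exception being PAX8. Over 3382 CpGs read on both strands in these genes, the mean absolute difference between strands was 0.121 in SKNO-1 and 0.123 in SKNO1-siAE, against 0.196 between libraries on the plus strand. Read numbers differed along the chromosomes, with a log2 ratio of SKNO-1 to SKNO1-siAE reads from -1.02 to 0.75 in the 5 Mb stretches of these genes. In 9 of 38 it was above 0.5 in size. At the 5 promoters past the limit it was -0.03 (PAX5), 0.08 (TBX21), 0.39 (TBX2), 0.15 (SOX13) and 0.07 (PAX8). Whether the ratio bears on the promoter differences was not tested. Across the 38 genes its Pearson correlation with the promoter difference was -0.127 and its Spearman correlation -0.207, as a description over genes that share 2 libraries.

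Along the gene start the level of these genes was above that over all genes. From 1500 to 1250 bp upstream the mean over genes was 0.778 in SKNO-1 and 0.74 in SKNO1-siAE, against 0.621 and 0.673 over all genes. In the 250 bp before the start the mean level over genes was 0.601 in SKNO-1 and 0.762 in SKNO1-siAE, against 0.263 and 0.324 over all genes. From 500 to 750 bp downstream it was 0.813 and 0.885, against 0.286 and 0.344. The lines differed by -0.16 (SD 0.254 over 31 genes) in the bin before the start and by -0.06 over all genes (SD 0.248), so the spread between genes was larger than either mean. That bin had the widest difference of all bins for these genes. In the 250 bp after the start it was -0.08, and from 1500 to 1250 bp upstream it was 0.04.

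Base composition, which the rule did not use, varied among the promoters, with a GC content from 44.1% at SOX4 to 76.2% at SOX8. Of 38, 31 (81.6%) were CpG-rich, against 62.2% of all genes, with a median of 110.5 against 81 CpGs in 2000 bp and a median GC content of 58.5% against 53.4%. The motif TGTGGT bound by RUNX factors, searched on both strands in the same window, was present in 24 (63.2%) and in 64.7% of all promoters. It occurred once in the printed stretch of SOX12 and in none of the other printed stretches. Across the 38 genes the observed to expected CpG ratio had a Pearson correlation of 0.0528 with the promoter difference, again as a description.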

How the data were processed

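DNA of 1 library per cell line was bisulfite-converted, captured and sequenced as paired reads. Per the submitters' processing notes, the authors used cutadapt 1.4.2 and BSMAP 2.73 with hg19. The authors deposited, for each CpG cytosine and strand, counts of methylated and unmethylated reads, not normalized, at sites with at least 5 reads. All deposited autosomal positions (100%) fell on a CpG cytosine of GRCh37. Removal of PCR duplicates is not given in the sources used here, and duplicates would narrow the intervals below their true width.

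Here the level of a site was methylated over all reads, and sites with 5 or more reads in both libraries (median depth 16 and 15) were used. Mitochondrial sites were 0.351% and 0.378% methylated. Genes came from GENCODE release 44 lifted to GRCh37. Promoters, gene bodies and intervals (95% Wilson, Newcombe for differences) are as described with the results, and a promoter or body needed 10 sites. Fisher's exact test (2-sided, Benjamini-Hochberg, 0.05) was applied per site. Regions joined 5 or more sites with gaps of up to 300 bp and a difference of 0.2 or more after smoothing over 5 sites. They were tested with a Mann-Whitney U test (normal approximation with ties) with Bonferroni adjustment. The study called regions with Metilene, which was not used here. With 1 library per line, these tests compare libraries and not conditions. The procedure was tested on simulated data for SKNO-1 against SKNO1-siAE at 321226 sites, with 200 regions of 40 sites changed by 0.4. There 97.5% of the regions were recovered with 0 called elsewhere, and 19.9% of their sites with 10 called elsewhere. The simulated reads were drawn independently at each site, whereas real neighbouring sites share reads. The simulation therefore cannot tell how many regions would be called falsely in these data. The members and lists were chosen with earlier results of these data known. Named first were promoters past the limit, then those nearest it, the largest body differences in each direction, the lowest and highest promoters, blood genes and the largest called regions; all other members were given by level. Alternatives were other read minima, pooled reads, merged strands, own sites, other promoter intervals, other limits and other adjustments. POU5F1 and RING1 had 0 sites, and some items under the naming rule are not reported here. The tools were scipy 1.17.1, numpy 2.4.6, matplotlib 3.10.9, pysam 0.24.0, pandas 2.3.3 and numba 0.67.0, under Python 3.11.15.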

Additional observations from a re-analysis of the deposited data

How the results depend on the processing

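No paired analysis was possible because there was 1 library per cell line. The median promoter difference over the 38 genes stayed between -0.06 and -0.04 and the median body difference between -0.05 and -0.04 under 7 other settings. The count of promoters lower in SKNO-1 was 5, and it was 3 in pooled reads, 11 at a difference of 0.1 and 3 at 0.3. With own sites of each library, 1 promoter and 1 body (SOX18 in both) were higher in SKNO-1. The count of bodies lower was 4, and it was 8 at a difference of 0.1 and 2 at 0.3, and 1 body was higher at 0.1. Bodies lower were 3 in 5 settings, without SOX7 in 4 and without SOX5 in 1. Sites called lower were 945 with 10 or more reads and 236 with Bonferroni adjustment, and sites called higher were 57 with Bonferroni adjustment. Regions called lower were 7 with 10 or more reads and 82 with Benjamini-Hochberg adjustment over candidates, where 28 were higher. Fewer sites pass a depth of 10, and Bonferroni is the stricter adjustment. The PAX8 promoter difference changed sign to 0.00788 around the start of the whole gene only, an interval without the called region. Under that setting 6 promoters were lower, with TBX3 and TBX15 added and PAX8 lost. Of the 97 alternative values, 14 for counts or medians and 22 for single genes moved, beyond counting error or, for counts, by over 1.5 times. A background of genes with 200 or more sites was chosen after seeing the data. With a median depth of 14 reads per site in these genes, a single site is imprecise, and without a second library per line no difference has a biological error.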

Other observations

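Genes related to the PAX, SOX and TBX families were measured in the same way. The T-box genes whose symbols fall outside the rule were methylated at the promoter in both lines. TBXT, of the notochord, was at 0.868 in SKNO-1 and 0.888 in SKNO1-siAE, EOMES at 0.689 and 0.68, TBR1, of cortical neurons, at 0.555 and 0.739, and MGA at 0.719 and 0.786. None of the 4 reached a difference of 0.2 at the promoter, and the MGA body was higher in SKNO-1, at 0.643 against 0.421. The promoters of POU3F2 and NANOG, partners of SOX proteins, were at 0.819 and 0.825, and 0.76 and 0.776.

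Polycomb subunits, which keep developmental genes silent, had mostly low promoters, with 1 of 13 above 0.5 in both libraries. EZH2, the methyltransferase of the complex, was at 0.0482 and 0.0458, SUZ12 at 0.0523 and 0.0366, and EED at 0.00295 and 0.0072. CBX7 (0.355 and 0.799) and PCGF2 (0.457 and 0.758) were lower in SKNO-1 by 0.2 or more, and CBX8 was higher, at 0.344 and 0.0553.

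Among the marker genes, KIT, a progenitor receptor, was at 0.205 and 0.606, and CEBPA, a myeloid factor, at 0.533 and 0.0208. The lymphoid gene CD7 was at 0.685 and 0.943, and the epithelial keratin KRT8 at 0.458 and 0.835. No other marker promoter of these lists with 10 or more sites reached a difference of 0.2. These are differences between 1 library and 1 library, with no test.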
